A study of Caenorhabditis elegans with 2 samples.

Results

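SR proteins are splicing factors that carry an RNA-recognition motif and a region rich in arginine-serine dipeptides. The 8 SR splicing factor genes of Caenorhabditis elegans, rsp-1 to rsp-8, were taken by their Ensembl WBcel235 symbols from 19973 protein-coding genes. Their occupancy was read from ChIP-seq (sequencing of immunoprecipitated chromatin) peak lists for HIM-1, the SMC1 subunit of cohesin. All animals were strain YL576 hermaphrodites carrying HIM-1 with a GFP-FLAG tag at its C terminus. They were L4/young adult worms, taken 51 hours after release of bleach-prepared L1 larvae from starvation. The 2 replicates formed 1 group, so there was no second condition. No untagged immunoprecipitation was analysed here, and the material was whole worms, so somatic and germline chromatin cannot be told apart. The labels named an anti-GFP antibody in their text and him-1 in their antibody field.

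Cohesin is a ring-shaped complex that holds sister chromatids together and shapes chromatin loops, and in many animals it is found at active promoters and enhancers. SR proteins bind enhancer sequences in exons and help U1 and U2 snRNP choose splice sites, and SR protein kinases control them by phosphorylating the arginine-serine region. In C. elegans they also act in trans-splicing, in which a spliced leader replaces the original start of a pre-mRNA. An annotated 5' end is therefore often the splice acceptor and not the start of transcription. The annotated 5' untranslated regions of the protein-coding SR transcripts had a shortest length of 1 to 13 bases per gene, and the longest, in a transcript of rsp-1, was 247 bases.

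The optimal list, thresholded on reproducibility by the authors, held 1797 entries, and the pooled list made from both replicates together held 12228. The replicates' own lists held 16213 and 15469 entries and, like the pooled list, include background. The signal of each entry is the authors' value on a scale not given in the sources used here, and the files give no read counts, so depth is unknown. Signals and ranks were therefore compared within a list, except for ratios between the replicates, which are given beside the same ratio over all entries. An entry was given to a gene when its summit lay inside the gene or within 1000 bp of a 5' end of one of its protein-coding transcripts. The members and lists were named with earlier results of these data known, and no test was run on them.

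HIM-1 entries of the optimal list were found at rsp-1, rsp-2, rsp-5 and rsp-6, in the short intergenic stretches in front of these genes. That is 4 of the 8 SR genes, through 3 entries, since rsp-1 and rsp-2 share 1. By the same rule 7.04% of all protein-coding genes had an optimal entry, and 6.08% had one within 1000 bp of a 5' end. The SR genes rsp-3 and rsp-8 had entries in the pooled list and in both replicates' lists but not in the optimal list. For rsp-7 only replicate 1 had an entry, ranking 6392nd of 16213. No list held an entry for rsp-4, but an optimal entry lay in front of the gene that adjoins it upstream.

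The sequences around the summits in front of the SR genes are shown because these stretches carry the entries described below. Each is the part of a 300 bp window around the summit that lies between annotated protein-coding genes, in the direction of the SR gene (for the pair rsp-1 and rsp-2, that of rsp-1). Sequence is from the RefSeq copy of WBcel235 (ce11). Capitals mark the 7-base word CGTCGCG or its reverse complement CGCGACG.
rsp-1/rsp-2 (chrII:11453043-11453342, plus strand): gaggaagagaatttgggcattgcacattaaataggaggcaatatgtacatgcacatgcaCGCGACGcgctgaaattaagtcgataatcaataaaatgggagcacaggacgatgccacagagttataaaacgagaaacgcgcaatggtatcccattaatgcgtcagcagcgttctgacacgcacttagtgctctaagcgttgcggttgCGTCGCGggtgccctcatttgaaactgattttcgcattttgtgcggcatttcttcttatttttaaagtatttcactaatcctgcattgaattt
rsp-5 (chrII:6489856-6490155, plus strand): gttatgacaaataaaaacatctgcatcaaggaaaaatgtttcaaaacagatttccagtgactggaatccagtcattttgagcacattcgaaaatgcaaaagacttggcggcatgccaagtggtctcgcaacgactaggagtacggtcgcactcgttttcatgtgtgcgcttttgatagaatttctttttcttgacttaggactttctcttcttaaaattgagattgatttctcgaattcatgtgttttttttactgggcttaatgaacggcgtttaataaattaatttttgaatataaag
rsp-6 (chrIV:7791230-7791446, minus strand): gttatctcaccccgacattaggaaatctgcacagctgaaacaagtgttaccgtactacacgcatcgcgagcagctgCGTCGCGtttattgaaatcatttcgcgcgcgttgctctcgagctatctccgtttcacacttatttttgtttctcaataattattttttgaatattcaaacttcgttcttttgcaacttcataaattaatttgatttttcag
rsp-3 (chrIII:12687968-12688267, minus strand): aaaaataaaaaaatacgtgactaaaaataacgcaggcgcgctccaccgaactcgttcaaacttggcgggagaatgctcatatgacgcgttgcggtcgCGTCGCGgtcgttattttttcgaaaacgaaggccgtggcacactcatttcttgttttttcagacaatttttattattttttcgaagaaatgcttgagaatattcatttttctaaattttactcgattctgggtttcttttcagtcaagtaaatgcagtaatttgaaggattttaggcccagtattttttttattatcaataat
rsp-8 (chrIII:11825683-11825982, plus strand): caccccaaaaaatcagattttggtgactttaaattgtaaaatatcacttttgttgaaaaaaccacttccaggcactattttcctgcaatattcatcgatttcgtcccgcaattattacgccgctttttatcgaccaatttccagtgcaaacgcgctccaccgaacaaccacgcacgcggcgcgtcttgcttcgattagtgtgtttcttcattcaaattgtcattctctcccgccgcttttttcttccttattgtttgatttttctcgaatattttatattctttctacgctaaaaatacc
ndx-6/rsp-4 (chrII:5389990-5390240, minus strand): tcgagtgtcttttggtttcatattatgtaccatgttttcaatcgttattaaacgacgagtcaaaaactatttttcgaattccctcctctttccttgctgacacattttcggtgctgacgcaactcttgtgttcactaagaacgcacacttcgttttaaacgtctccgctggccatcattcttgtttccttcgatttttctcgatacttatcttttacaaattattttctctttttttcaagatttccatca
The stretch of rsp-6 stops at the annotated 5' end of the gene and that of ndx-6/rsp-4 at the 3' end of the next gene, brap-2.

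The pair rsp-1 and rsp-2 had the strongest HIM-1 entry among the SR genes. Both encode SR proteins closest to the human SRp40, SRp55 and SRp75 family. They are transcribed away from each other and lie 406 bp apart on chromosome II, rsp-1 at chrII:11453362-11455864 and rsp-2 at chrII:11451441-11452955. The entry at chrII:11452958-11453427 had a signal of 170 and ranked 644th of the 1797 optimal entries. It had a signal of 107 in replicate 1, ranking 558th of 16213, and of 59.4 in replicate 2, ranking 992nd of 15469. Both replicates thus placed it among the top 6.41% of their entries.

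The summits of this entry lay close together in all lists. The pooled summit lay 238 bp upstream of the 5' end of rsp-2, the replicate 1 summit 243 bp and the replicate 2 summit 227 bp. For rsp-1 the distance depends on the transcript. The pooled summit lay 169 bp upstream of the outermost 5' end, which belongs to a transcript annotated as non-coding, and 781 bp upstream of the nearest 5' end of a protein-coding one. The entry covers nearly the whole stretch between both genes and cannot be assigned to one of them. With a 500 bp window rsp-1 lost it and rsp-2 did not, and 3 SR genes and 5.82% of all protein-coding genes had an optimal entry.

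A second, weak entry lay inside rsp-1, at chrII:11454790-11455259. Its pooled signal was 51.8 (rank 7500 of 12228), with 32.3 in replicate 1 and 19.8 in replicate 2. The −log10 q-value in the pooled list was 0.17, against at least 2.15 in the optimal list. The summit fell in an exon that is coding sequence in 2 transcripts and 3' untranslated in the other 3. Replicate 2 had a further entry 593 bp downstream of an internal 5' end, with a signal of 18.9 (rank 13512 of 15469). The lowest signal in that list was 17.9, and the entry had a −log10 q-value of 0.04.

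At rsp-6 the optimal entry lay nearest to the 5' end among the SR genes. The gene, at chrIV:7789847-7791229, encodes the homologue of human SRp20. The entry at chrIV:7791062-7791531 had a signal of 122 and ranked 1273rd of the optimal list. Replicate 1 gave 66.4 (rank 1573) and replicate 2 gave 48.1 (rank 1518). The pooled summit lay 68 bp upstream of the 5' end and that of replicate 2 lay 69 bp upstream, while the replicate 1 summit was 157 bp upstream. A second pooled entry 305 bp upstream, with a signal of 46.4 and rank 9820, overlapped the first, and its highest match in each replicate was the same entry as that of the first. The second entry had a −log10 q-value of 0.07. By the same rule the optimal entry also counted for C33H5.13, the upstream neighbour on the same strand. Its summit lay 573 bp downstream of a coding 5' end of that gene.

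A further entry lay just past the other end of rsp-6 and outside the rule. Its pooled signal was 100.8, rank 1832, so it fell just short of the optimal list, whose lowest signal was 102.0. The signal was 57.6 in replicate 1 and 40.7 in replicate 2. The summit was 66 bp beyond the 3' end of rsp-6 and 168 bp upstream of imp-3, the next gene on the same strand, which starts 233 bp away. Replicate 2 also had an entry inside rsp-6, 132 bp before its 3' end, with a signal of 23.0 (rank 8210 of 15469). Its −log10 q-value was 0.17.

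The entry at rsp-5 was weaker and ranked lower in replicate 2 than in replicate 1. The gene, at chrII:6490165-6491340, encodes a homologue of human SC35. The entry at chrII:6489771-6490240 had a signal of 106 and ranked 1671st of the 1797 optimal entries. It had 70.4 in replicate 1, rank 1377, and 32.1 in replicate 2, rank 3505. Its rank in replicate 2 lay beyond the length of the optimal list, and when replicate 2 alone was used, with as many entries as that list holds, rsp-5 had none. Replicate 1 had another entry 38 bp downstream of a 5' end of rsp-5, in coding sequence, with a signal of 48.0 (rank 2977).

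The rsp-5 entry is also that of an Sm protein gene. The summit lay 159 bp upstream of rsp-5 and 245 bp upstream of snr-3, which encodes an Sm core protein of spliceosomal snRNPs and runs the other way from 403 bp away. A stronger optimal entry, with a signal of 167 (rank 671), had its summit 656 bp beyond the 3' end of rsp-5, outside the rule. It had 90.4 in replicate 1 and 81.6 in replicate 2, and its summit was 3 bp from the 5' end of T28D9.11, an uncharacterized gene.

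**Figure D1:**
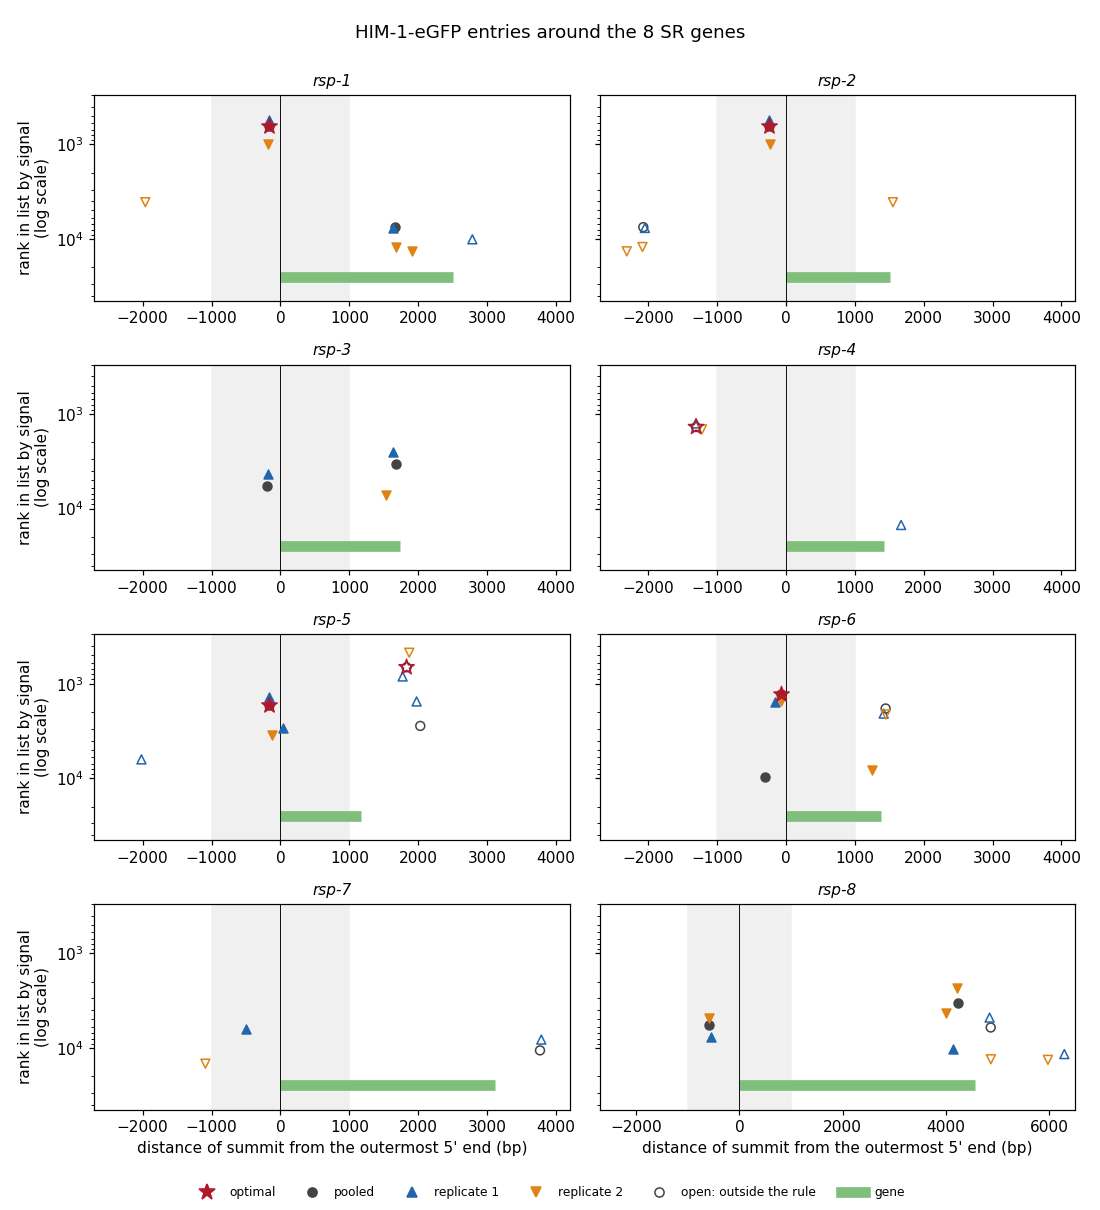
Each panel shows a gene (green bar) with the summits of entries around it, by distance from its outermost 5' end in bp (negative upstream) and by rank in the list the entry belongs to (log axis, highest signal at the top). Stars are optimal entries, circles pooled entries and triangles the replicates' entries, open symbols lie outside the rule, and the shading spans 1000 bp on both sides of the outermost 5' end. Filled stars stand just upstream of rsp-1, rsp-2, rsp-5 and rsp-6, and the open star of rsp-4 lies 1304 bp upstream.

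At rsp-3 HIM-1 entries did not reach the optimal list. The gene, at chrIII:12686182-12687922, encodes the homologue of human SF2/ASF and is required for embryonic development. The entry at chrIII:12687883-12688352 had its summit 196 bp upstream of rsp-3 and 200 bp upstream of spin-4, its neighbour on the other strand, 395 bp away. Its pooled signal was 57.4 (rank 5828) and its replicate 1 signal 40.6 (rank 4346), and replicate 2 had no entry that overlapped it. The entry at the other end of the gene, chrIII:12686011-12686480, was higher, with 73.2 in the pooled list (rank 3386), 52.2 in replicate 1 and 24.3 in replicate 2. Its summit lay 64 bp before the 3' end, in the 3' untranslated region of 1 transcript. In the pooled list the −log10 q-value was 0.30 for the upstream entry and 0.82 for this one, against at least 2.15 in the optimal list. The convergent gene elpc-2 overlaps that end of rsp-3 by 44 bp.

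At rsp-8, which encodes the homologue of the splicing regulator Tra2, pooled entries again lay at both ends. The gene is the longest of the SR genes, at chrIII:11826418-11830974. The upstream entry, chrIII:11825598-11826067, had its summit 585 bp upstream, with a pooled signal of 57.6 (rank 5777), 32.2 in replicate 1 and 28.0 in replicate 2. The entry near the 3' end, chrIII:11830409-11830878, had 73.8 in the pooled list (rank 3325), 28.9 in replicate 1 (rank 10226) and 38.8 in replicate 2 (rank 2332). Among the pooled SR gene entries matched in both replicates, only this one had a higher signal in replicate 2. Its summit lay in coding sequence of the last exon, 330 bp before the 3' end of the gene. That summit was also 689 bp downstream of an internal 5' end of a protein-coding transcript of rsp-8. In the pooled list the −log10 q-value was 0.31 for the upstream entry and 0.85 for the one near the 3' end, against at least 2.15 in the optimal list.

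The rsp-4 gene, which encodes another homologue of human SC35, had no entry of any list inside it or within 1000 bp of a 5' end. It lies at chrII:5387411-5388836, and its upstream neighbour on the same strand, ndx-6, a putative nudix hydrolase gene, overlaps it by 8 bp. In front of ndx-6 there was an optimal entry at chrII:5389905-5390374, with a signal of 116 (rank 1372), 73.6 in replicate 1 (rank 1257) and 49.04 in replicate 2 (rank 1453). The pooled summit was 259 bp upstream of ndx-6 and 1304 bp upstream of rsp-4. Its signal lay between those of rsp-5 and rsp-6. With a window of 2000 bp it counted for rsp-4, and then 5 of the 8 SR genes and 9.27% of all protein-coding genes had an optimal entry. The lists do not show whether both genes are transcribed from there.

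At rsp-7, which encodes an SR-related protein, the files held little. The gene lies at chrII:10659206-10662317. Replicate 1 had an entry with its summit 505 bp upstream and a signal of 34.8 (rank 6392 of 16213). It lay 75 bp upstream of snu-13, the neighbour on the other strand 579 bp away, which encodes a protein of the U4/U6 snRNP. Replicate 2 had an entry outside the rule, 1089 bp upstream, with a signal of 18.3 (rank 14705), and the pooled list had none in front of the gene.

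The counts per list were 4 of 8 SR genes in the optimal list, 6 in the pooled list, 7 in replicate 1 and 6 in replicate 2. For all 19973 protein-coding genes the shares were 7.04%, 31.2%, 37.4% and 39.3%. The SR gene shares were 50%, 75%, 87.5% and 75%. The median length of the SR genes was 1628 bp, against 2027 bp for all protein-coding genes. Leaving the gene body out gave the same 4 genes in the optimal list and the same 6 in the pooled list, and 5 in replicate 2, which lost rsp-3. The share over all protein-coding genes was then 6.08% for the optimal list and was not computed for the other lists.

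The 3 distinct optimal entries of the SR genes ranked 644, 1273 and 1671 of 1797. Their median signal was 122, against 144 for the whole optimal list. Counted per gene, with the shared entry counted for both rsp-1 and rsp-2, the highest optimal signal per gene had a median of 146 over the 4 SR genes and 149.9 over the 1407 protein-coding genes. In the pooled list the medians were 114 over 6 SR genes and 61.9 over 6223 genes.

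Signals at SR genes were mostly higher in replicate 1, as they were across the lists. The log2 ratio of replicate 1 over replicate 2 signal had a median of 0.59 over the 8 of 9 pooled SR gene entries that overlapped an entry in both replicates, ranging from -0.43 to 1.13. The 2 entries of rsp-6 matched the same replicate entries, and with these counted once the median was 0.71 over 7. Over all pooled entries the median was 0.45, with 8371 of 12228 matched in both, and over the optimal entries it was 0.50. The log2 ratio was 1.13 at rsp-5, 1.10 at the 3' entry of rsp-3, 0.85 at rsp-1/rsp-2 and 0.47 at rsp-6. A single control served both replicates, per the text deposited with each sample, and its part in what they share was not tested.

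**Figure D2:**
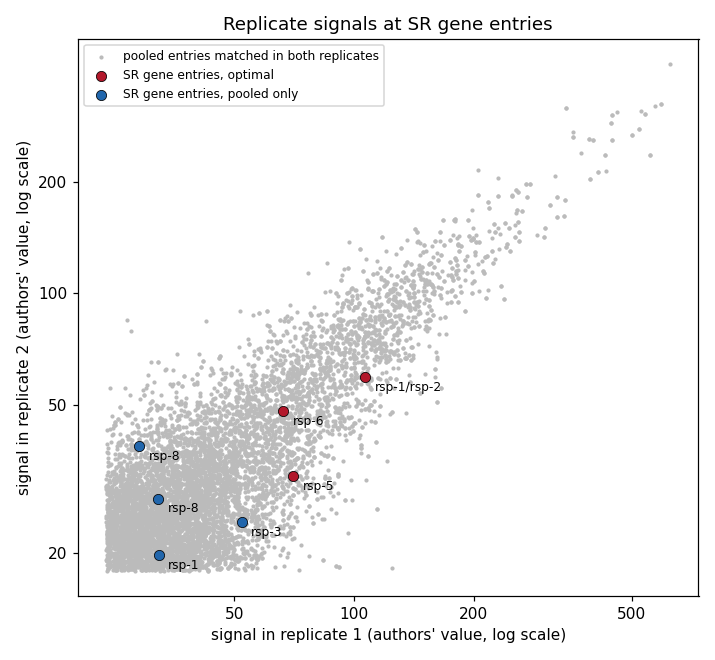
Signal in replicate 1 against replicate 2 (authors' values, both axes log) for pooled entries that overlap an entry in both replicates (grey) and for those at SR genes (red, optimal; blue, pooled only). The rsp-1/rsp-2 entry is the highest of the SR genes in both replicates, at 107 and 59.4; the second rsp-6 entry overlaps the same replicate entries as the first and is not drawn again, and the upstream rsp-3 entry has no match in replicate 2.

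Most SR genes with an optimal entry shared the intergenic stretch in front of them with a gene on the other strand. Of the 8 genes, 5 (rsp-1, rsp-2, rsp-3, rsp-5 and rsp-7) stood head to head with a protein-coding neighbour at most 1000 bp away. Of these, 3 had an optimal entry. Gaps were measured between gene boundaries, and that of rsp-1 is the 5' end of its non-coding transcript. The nearest coding 5' ends of rsp-1 and rsp-2 lay 781 and 238 bp from the summit, on opposite sides of it. By coding 5' ends this pair is thus more than 1000 bp apart, and without it only rsp-5 of the head-to-head SR genes had an optimal entry. Among 3439 head-to-head protein-coding genes 12.9% had an optimal entry by the same rule, against 7.04% of all. The gaps at the 5 genes were 395 to 579 bp. Of the other 3, rsp-6 had its upstream neighbour 474 bp away on the same strand, and rsp-8 had it 1442 bp away.

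The optimal summits of SR genes all lay upstream. Their distances to the nearest 5' end of a protein-coding transcript were 68 bp for rsp-6, 159 bp for rsp-5, 238 bp for rsp-2 and 781 bp for rsp-1. Over 1321 pairs of a protein-coding gene and an optimal entry within 1000 bp of its 5' ends, 85.8% of summits were upstream, with a median of -231 bp and quartiles of -443 and -88 bp. The rsp-2 and rsp-5 summits were inside those quartiles, rsp-6 was nearer and rsp-1 farther.

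**Figure D3:**
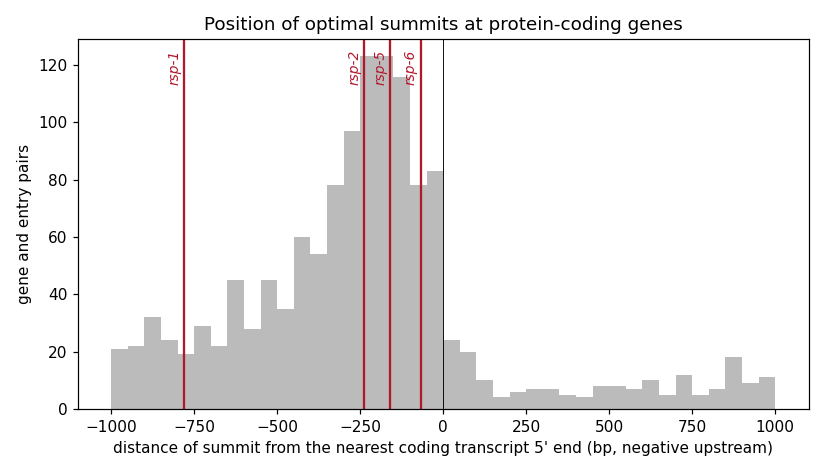
Histogram of the distance in bp (negative upstream) from the nearest 5' end of a protein-coding transcript to the optimal summit, for the 1321 gene and entry pairs within 1000 bp. Red lines mark the SR genes: rsp-2, rsp-5 and rsp-6 lie within 238 bp of the 5' end and rsp-1 lies 781 bp upstream.

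Pooled entries near the 3' end were seen at rsp-3, rsp-6 and rsp-8, a feature picked out after their values were seen. With a summit within 500 bp of the 3' end, 3 of 8 SR genes had one, against 14.1% of all protein-coding genes. The −log10 q-values of the entries described above were 0.82 at rsp-3, 2.13 at rsp-6 and 0.85 at rsp-8, and the pooled list includes background. These 3' ends lie close to other genes: rsp-3 and elpc-2 overlap, imp-3 lies 233 bp beyond rsp-6, and ntl-3 ends 37 bp beyond rsp-8. A 5' end of a neighbour was within 200 bp of the summit only at rsp-6. The rsp-8 summit in coding sequence lay 689 bp downstream of an internal 5' end of rsp-8 itself, so it also falls under the 5' end rule.

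The sequence at the SR gene summits was examined within 100 bp on both sides. The GC content was 48.8% at rsp-1/rsp-2, 41.8% at rsp-6 and 39.8% at both rsp-5 and ndx-6/rsp-4. The median over all optimal summits was 45.8%, with quartiles of 40.8 and 50.2%, and over the 201 bp in front of each protein-coding gene it was 32.8%. Over the 9 pooled SR gene summits the GC content ranged from 32.3% to 54.7%, the highest at the coding sequence of rsp-8.

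Of the 6 short motifs searched on both strands, each was found at 0 to 2 of the 9 pooled SR gene summits. GAGAGA was found at 1, in front of rsp-8, against 43.9% of all optimal and 22.7% of all pooled summits. GCGCGC was found at rsp-6 only, against 10.9% of optimal and 4.58% of pooled summits. TATAAA was found at rsp-1/rsp-2 and at the second rsp-6 summit, against 10.6% of optimal and 17% of pooled summits. TGATAA was found at that rsp-6 summit, against 6.34% and 12.8%. CACGTG and GGGCGG were found at none, against 4.06% and 11.2% of optimal and 4.07% and 6.59% of pooled summits. In the 201 bp in front of all protein-coding genes the shares were 16.4% for GAGAGA, 2.55% for GCGCGC, 30.5% for TATAAA, 22.8% for TGATAA, 4.23% for CACGTG and 6.01% for GGGCGG. Matches to GCGCGC and to the word below can overlap in part.

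The word CGTCGCG, marked in capitals in the sequences, was noticed after these were read and has no test. It occurred within 100 bp of 4 of the 9 pooled SR gene summits, on either strand. These were rsp-1/rsp-2, with 2 matches, rsp-6, the upstream summit of rsp-3 and the summit in coding sequence of rsp-8. It was present at 4.01% of optimal summits, 1.74% of pooled summits and 0.796% of the windows in front of protein-coding genes. It was not found at rsp-5 or ndx-6/rsp-4.

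Longer words were also shared between the sequences shown. The upstream sequences of rsp-3 and rsp-8 had a run of 15 bases in common, cgcgctccaccgaac, which occurs 72 times in the genome. Of these copies 21 lay within 1000 bp of the outermost 5' end of a protein-coding gene, 3 inside a pooled entry and 0 inside an optimal one. The sequences of rsp-1/rsp-2 and ndx-6/rsp-4 shared tgcgtcagca, with 85 copies in the genome, of which 30 lay inside a pooled and 21 inside an optimal entry. The word tgcgtcgcg of rsp-1/rsp-2 and rsp-6, which contains CGTCGCG, had 20 of 354 copies in optimal entries. For gcgttgcggt of rsp-1/rsp-2 and rsp-3 it was 10 of 277, and the rsp-1/rsp-2 site is itself among the copies of both words. Some words were seldom in optimal entries: ataaattaattt of rsp-5 and rsp-6 had 7 of 539 copies there, and gatttttctcga of rsp-8 and ndx-6/rsp-4 had 2 of 206. Pooled entries cover 5.35% of the chromosomes and optimal entries 0.803%. The rsp-1/rsp-2 and ndx-6/rsp-4 sites are themselves among the 21 copies of tgcgtcagca in optimal entries, and all these words were chosen because the sequences share them.

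Other splicing genes were set beside the SR genes by the same rule. Of 23 spliceosome genes 6 had an optimal entry (26.1%), led by mog-4, a DEAH-box helicase gene (signal 337), snr-4 of the Sm proteins (266) and prp-19, which encodes the ubiquitin ligase of the spliceosome (234.7). The others were prp-8 (139), snr-1 (131) and snr-3, whose entry is that of rsp-5 (106). Their median highest optimal signal was 187. Of these 23 genes 15 had a pooled entry (65.2%). By the same rule 7.04% of all protein-coding genes had an optimal entry and 31.2% had a pooled one.

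Among the genes of proteins that work with SR proteins, 2 of 3 had an optimal entry. They were rsr-1 (273), which encodes an SR-related protein, and spk-1 (106), which encodes the SR protein kinase, while rsr-2 had a pooled entry only (54.5). Among 9 genes of alternative splicing regulators 3 had one, namely hrpf-1 (177) and hrpa-1 (141), both of hnRNP proteins, and fox-1 (104), an RNA-binding protein gene on X. All 9 had a pooled entry. Over all protein-coding genes the shares were 7.04% for the optimal list and 31.2% for the pooled list. The rule also counts summits inside genes, and the lengths of the genes in these lists were not compared. These counts are descriptions, and whether the lists differ from the SR genes was not tested.

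**Figure D4:**
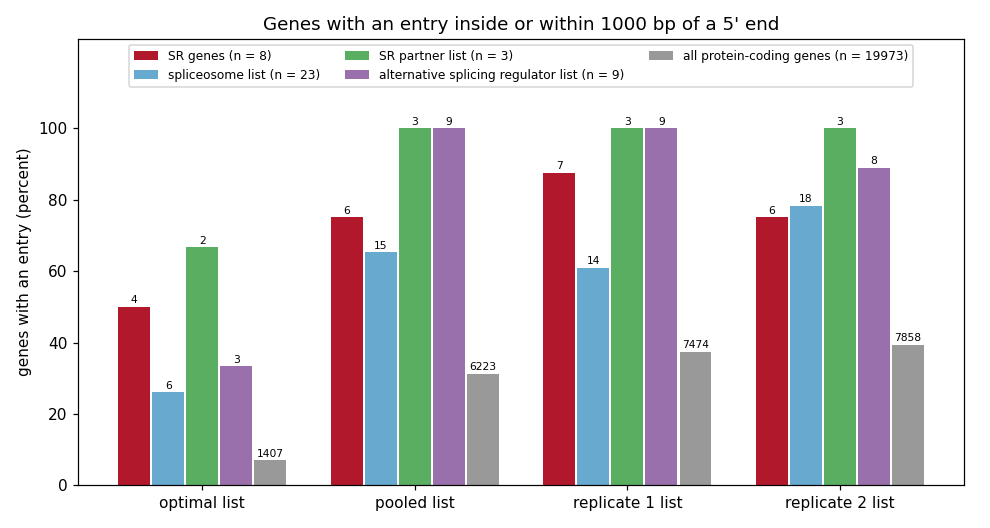
Percent of genes with an entry inside the gene or within 1000 bp of a 5' end, for each of the 4 lists, with the number of genes above each bar. The SR genes (red) stand at 4, 6, 7 and 6 of 8, and all protein-coding genes (grey) at 7.04%, 31.2%, 37.4% and 39.3%.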

How the data were processed

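ChIP-seq peak lists (narrowPeak, ce11) were used: a list for each of 2 replicates, a pooled list and an optimal list thresholded by the irreproducible discovery rate, per the text deposited with each sample. The signal value of each entry, and its −log10 q-value, are those the authors deposited. Aligner and peak caller: not given in the sources used here. Read depth is unknown, so values carry no interval. The same lists in ce10 were not used, as no ce10 annotation was at hand.

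Summits (start plus peak offset) were placed on genes of Ensembl release 115 (WBcel235, the ce11 assembly). For placing entries only 5' ends of protein-coding transcripts counted, while gaps between neighbouring genes were measured between gene boundaries. Ranks are by signal within a list. Replicate entries were matched to pooled ones by at least 1 bp of overlap, taking the highest signal. Placement was checked on simulated data with known answers. Python 3.11.15, NumPy 2.4.6, pandas 2.3.3 and matplotlib 3.10.9 were used. All 8 SR genes and the genes with an optimal entry in each splicing list were named. Neighbours were named only where an entry or a gene end next to them was described. The SR genes, lists and alternatives were chosen with earlier results of these data known.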

Additional observations from a re-analysis of the deposited data

How the results depend on the processing

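The 4 SR genes with an optimal entry became 2 (rsp-1 and rsp-2) among optimal entries at or above the list's median signal. Without replicate 1 or replicate 2, the other replicate's own list was cut to its entries of highest signal, as many as the optimal list holds. The count was then 3 to 4, with rsp-5 lost when replicate 1 was left out. The share over all protein-coding genes was not computed for the cut lists. With a 500 bp window it was 3, where 5.82% of all protein-coding genes had an entry, and with 2000 bp it was 5, where 9.27% did. The median of the highest signal per gene was 114 in the pooled list, 89.9 with a 500 bp window, 122 with 2000 bp, and 43.5 to 66.4 without one of the replicates, whose lists have lower signals by their own scale. Other settings were each window, the gene body left out, interval overlap and the outermost 5' end only. Under these the counts were 6 to 7 in the pooled list, 6 to 8 in replicate 1 and 5 to 8 in replicate 2. The share over all protein-coding genes was not computed for these lists under these settings. A wider window or interval overlap can raise it for any gene, so these counts have no share to be read against. Matching replicates by an overlap of 50 percent gave a median log2 ratio of 0.71. No paired analysis was possible because there is 1 group. The lists give no read counts, so a missing entry says only that none was listed.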
